A study of Ovis aries with 20 samples.

Results

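Imprinted genes were examined in the pancreas of cloned CFTR-/- sheep and of naturally conceived wild type (WT) sheep, as fetuses and at term. The genes were chosen by name: DLK1, MEG3, H19, PEG3, PEG10, SGCE, MEST, CDKN1C, PLAGL1 and GRB10. Of these 10 names, 8 were gene identifiers among the 24478 genes of the count table, and MEG3 and H19 were not. A gene listed as GTL2, an older name of MEG3, lay beside DLK1 and is described next to it without being counted among the 8. Bulk RNA-seq covered 5 stages, 65, 80, 100 and 120 days of gestation and term (147 days), with 2 animals of each genotype per stage and 20 libraries in all. The CFTR-/- animals were clones made by somatic cell nuclear transfer from 1 line of male fetal fibroblasts with both copies of the chloride channel gene CFTR disrupted in exon 2. All animals were of the American Romney breed. The WT animals came from breeding, and their sex was not given in the sources used here. According to the paper, WT term animals were born naturally and lived for a recorded time, which is not given per animal. It places the recovery of term clones at 147 days or slightly later. Differences in birth or exact age between the genotypes at term were not tested. Genotype, cloning and the donor line cannot be told apart in any comparison of CFTR-/- with WT.

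An imprinted gene is expressed mainly from the maternal or mainly from the paternal copy, according to DNA methylation laid down in the germ line and kept through the divisions of the embryo. Many imprinted genes act on fetal growth, with paternally expressed genes such as DLK1, MEST and IGF2 tending to promote it and maternally expressed genes such as CDKN1C, H19 and IGF2R tending to restrain it. These marks are known to be disturbed in some animals born from nuclear transfer or embryo culture, and the sheep carries a well-known imprinted cluster, the DLK1-GTL2 domain of the callipyge trait. The counts give the total RNA of each gene and not the share from each parental copy, so that imprinting itself was not measured. In whole tissue, fewer cells of a type and less RNA per cell cannot be told apart.

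Total counts ran from 23171353, in CFTR-/- animal 2 at term, to 64947692 per library. The next lowest was 35973948, in CFTR-/- animal 2 of the 100 day stage, and the median was 61588258. The acinar enzyme gene CEL was at 602 CPM or more in all 20 libraries. Of the 11 acinar markers in the table, 10 were detected in every library, with lowest values between 19.7 (CPB1) and 1197 CPM (CPA1), while PNLIP had a median of 0.888 CPM and was at 0 in 1 library. Values are CPM, counts per 1000000 after trimmed mean of M values (TMM) scaling, unless another scale is named. A pair of libraries stood apart from the rest, WT animal 2 of the 120 day stage and CFTR-/- animal 2 of the 100 day stage. Their summed adipocyte markers reached 343 and 369 CPM against 171 or less elsewhere, and both had the highest stellate cell levels, 811 and 1211 CPM. This CFTR-/- animal also had the lowest acinar level, 3173 CPM. The latter shares the animal number in its label with WT animal 1 of the 65 day stage, and that number was not used. Of the marker lists, 0 genes were called over all ages, and at term 1 was, S100B of the Schwann cell list (log2 difference 2.24, SE 0.33, adjusted p = 0.00460). TMM factors ran from 0.519 in CFTR-/- animal 1 at term to 1.64 in CFTR-/- animal 2 at 65 days, so that the choice of scaling shifted all genes together. Scaling by total counts alone moved the median log2 difference of all genes between CFTR-/- and WT by 0.26 at 65 days, -0.07 at 80 days, 0.27 at 100 days, -0.26 at 120 days, -0.53 at term and -0.06 over all ages.

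The 8 genes differed widely in level. On the RPKM scale (CPM per kilobase of gene length), the median over the 20 libraries was 461 for DLK1, 65.5 for MEST, 58.6 for CDKN1C, 17.7 for PLAGL1, 16.0 for GRB10, 12.2 for SGCE, 3.24 for PEG10 and 0.610 for PEG3. The ranges over the libraries of each pair of neighbours in this order overlapped, and the widest steps between medians were those from DLK1 to MEST and from PEG10 to PEG3. Spread between animals was also unequal. The SD of log2 CPM over the 20 libraries was 1.85 for PEG3, 1.53 for PEG10 and 1.36 for CDKN1C, while it was 0.58 for PLAGL1 and 0.42 for GRB10. All 8 passed the filter on low counts.

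**Figure D1:**
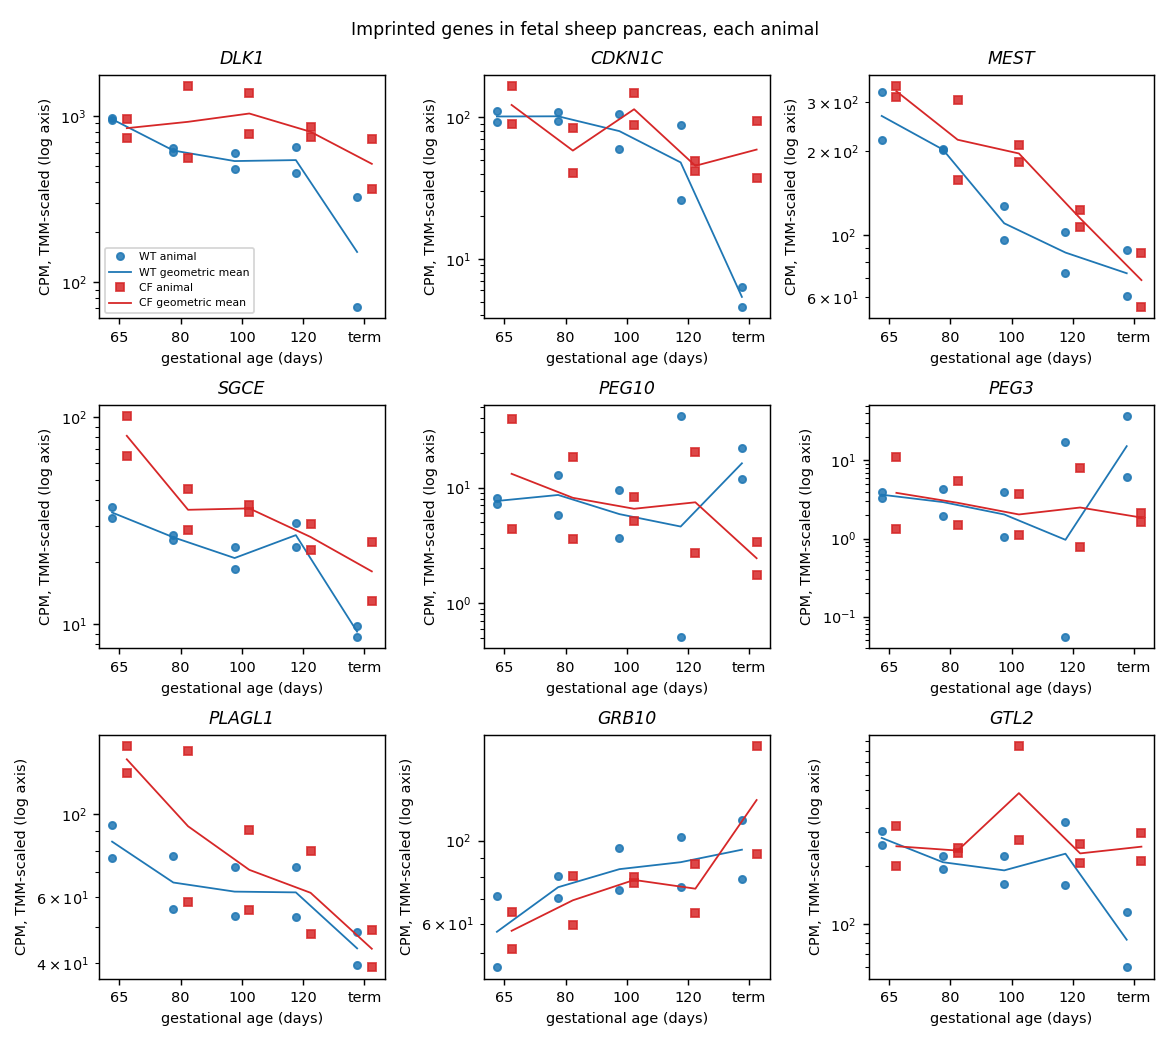
TMM-scaled CPM on a log axis of the 8 imprinted genes and of GTL2 against gestational age in days, with WT animals as circles, CFTR-/- animals (CF) as squares and a line through the geometric mean of the 2 animals of each group. CDKN1C in WT falls to 4.58 and 6.36 CPM at term while the CFTR-/- animals stay at 37.2 and 93.5, and PEG3 and PEG10 vary within groups.

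Over all ages together, 0 of the 8 genes passed the test between CFTR-/- and WT, against 0.0871% of the 19522 genes tested. The test was edgeR's quasi-likelihood F-test with age in the model, and a gene was called where its p, adjusted by Benjamini-Hochberg over all genes, did not exceed 0.01 and its log2 fold change reached 0.58 in either direction. An unadjusted p under 0.05 was reached by 2 of the 8, SGCE and DLK1, where 10.9% of all genes reached it. By DESeq2's Wald test, which also called more of all genes than edgeR (counts at the end), 1 of the 8, SGCE, was called. The fitted log2 difference was above 0 for 6 of the 8, against 43.3% of all genes, with a median of 0.32 where all genes had -0.06, and below 0 for PEG3 and PEG10. At 65, 80, 100 and 120 days 0 of the 8 were called with either edgeR or DESeq2, and edgeR called 0.00% of all genes. An unadjusted p under 0.05 was reached by 1 gene (SGCE) at 65 days, by none at 80 days, by 2 (SGCE and MEST) at 100 days and by none at 120 days, against 6.29%, 1.41%, 10.1% and 3.52% of all genes. The paper's own edgeR comparison at 65 days, at the same thresholds, did list differing genes, SGCE among them. It also reported differing genes at 80, 100 and 120 days, and more at term than the fit used here called. The reason was not tested. The 2 animals per group limit a comparison at 1 age: an exact two-sided permutation test there cannot go below 0.333.

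**Figure D2:**
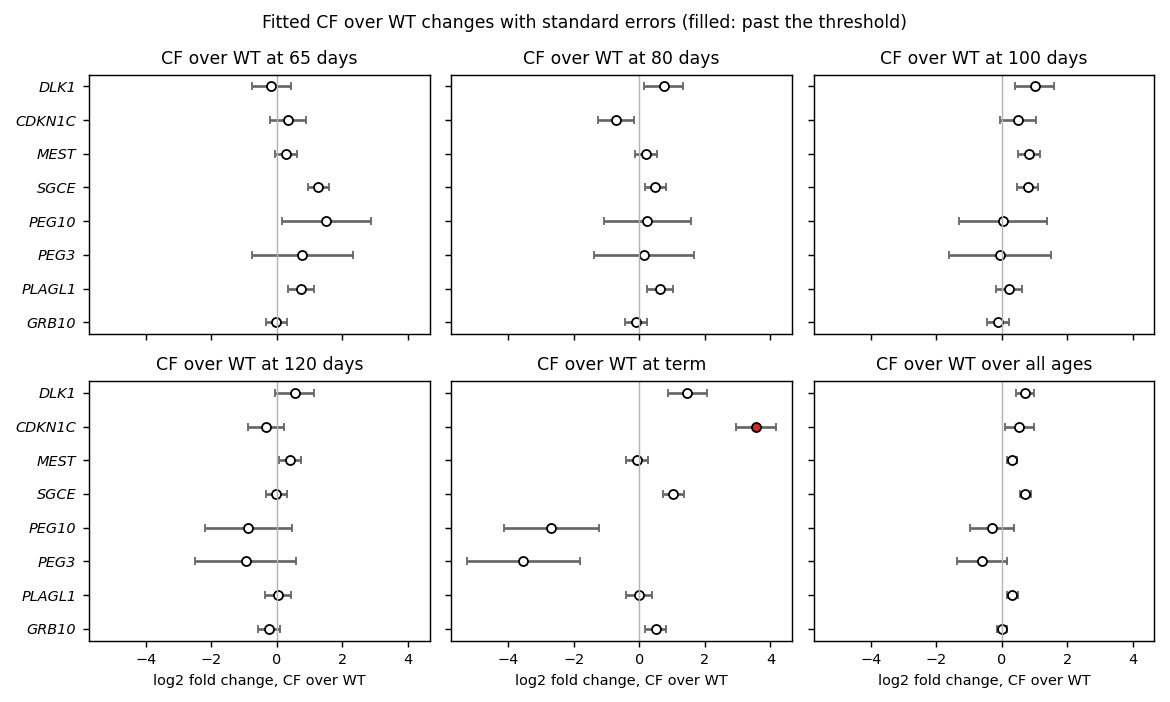
Fitted log2 fold change of CFTR-/- (CF) over WT for the 8 genes by age and for all ages together, with bars of 1 standard error from the model and filled circles for genes past the threshold. CDKN1C at term, at 3.57, is the one filled circle, and the bars of PEG3 and PEG10 are the widest.

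CDKN1C was the member that passed the test at a single age. It encodes a cyclin-dependent kinase inhibitor that holds cells out of the cell cycle, is expressed from the maternal copy, and lies at chr21:47864420-47866931 of Oar_v4.0. At term it measured 4.58 and 6.36 CPM in the WT animals and 37.2 and 93.5 CPM in the CFTR-/- animals. The lower CFTR-/- animal stood above the higher WT animal, and the difference was 11.9-fold, a log2 fold change of 3.57 (SE 0.61, adjusted p = 0.00733). It was 1 of 8 genes called there, against 1.03% of all genes, and 3 of the 8 (CDKN1C, SGCE and DLK1) had an unadjusted p under 0.05, against 29.7%. Under total count scaling the difference was 3.03 (adjusted p = 0.00738). The call was lost when WT animal 1, WT animal 2 or CFTR-/- animal 2 was left out (adjusted p = 0.0284, 0.0302 and 0.0686), with the difference at 3.29, 3.83 and 2.72, and held without CFTR-/- animal 1. It was also lost with only the 4 libraries of that age (3.57, adjusted p = 0.0438). CFTR-/- animal 2, the one at 93.5 CPM, was also the library with the lowest total count, 23171353. What that depth did to the calls at term was not tested.

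At the other ages CDKN1C was not called, and at none of them did both CFTR-/- animals lie above both WT animals. At 65 days it measured 111 and 91.9 CPM in WT and 167 and 89.0 in CFTR-/-. At 80 days the order was turned, with 109 and 94.3 in WT above 83.4 and 40.4 in CFTR-/-, a log2 difference of -0.71 (SE 0.55, adjusted p = 1). At 100 days WT animals had 106 and 59.8 CPM and CFTR-/- animals 87.7 and 147, and at 120 days 26.2 and 87.6 against 41.8 and 49.2, so that the groups overlapped at both ages. The difference over all ages, 0.53 (SE 0.43), rested on term and became -0.04 without it. The test of whether the genotype difference varied with age gave CDKN1C an unadjusted p of 0.000993 and an adjusted p of 0.173, with 0.00% of all genes called by edgeR and 12.8% at an unadjusted p under 0.05.

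The steps of CDKN1C to term were tested within each genotype. Between 65 days and term CDKN1C fell in WT by 4.21 on the log2 scale (SE 0.58, adjusted p = 0.00613), and it was called along with SGCE, 2 of the 8 genes where 2.04% of all genes were called. Leaving out any 1 of the 4 WT animals ended both calls, with adjusted p from 0.0235 to 0.0588 for CDKN1C and from 0.0145 to 0.0582 for SGCE. In CFTR-/- the same step of CDKN1C was -0.96 (SE 0.52, adjusted p = 0.250), and the difference between these steps alone was not tested. Other values moved with the genotype at term: the 12 genes of a proliferation list were all lower in CFTR-/-, their sum at 173 and 72.5 CPM against 407 and 462 in WT, with 0 called, and the endocrine markers were higher in 13 of 14, summing to 5700 and 4547 CPM against 877 and 2516 in WT. At term 21.3% of all genes lay wholly above WT in CFTR-/- and 32.7% wholly below, and 29.7% had an unadjusted p under 0.05. The median log2 difference of all genes there was -0.19. Other summed levels were also without overlap at term. Those higher in CFTR-/- were the immediate early and heat shock genes (1305 and 1745 CPM against 227 and 918, 6 of 9 with an unadjusted p under 0.05), hepatocyte (7030 and 5642 against 2338 and 3672), stellate (178 and 395 against 146 and 82.9), Schwann (123 and 178 against 72.8 and 56.9) and duct markers (1490 and 1649 against 1111 and 1484). Adipocyte (11.9 and 14.0 against 171 and 45.7) and enterocyte markers (92.6 and 87.6 against 114 and 182) were lower. The summed stromal level overlapped, 3613 and 4188 CPM against 3796 and 1798. Whether any of these had a part in the CDKN1C difference was not tested. The paper also reports that RNA integrity in the CFTR-/- term pancreas was slightly below that of WT, though within its limits for sequencing. This applies to every comparison of CFTR-/- with WT at term, and its part in the calls there was not tested. The WT term animals also differed in how strongly counts depended on gene length, and with that trend as a covariate CDKN1C was 3.12 higher in CFTR-/- (adjusted p = 0.0157).

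SGCE gave the smallest p over all ages. It encodes epsilon-sarcoglycan, a membrane protein of the dystrophin-associated complex, is expressed from the paternal copy, and lies at chr4:11858429-11926328 on the minus strand. At 65 days it measured 32.6 and 36.9 CPM in WT and 65.2 and 102 in CFTR-/-, the largest separation of its course, at a log2 difference of 1.27 (SE 0.32, adjusted p = 0.490). At 80 days it was 25.7 and 27.0 in WT and 28.5 and 44.8 in CFTR-/-. At 100 days it was 18.5 and 23.6 in WT and 37.7 and 34.9 in CFTR-/-.

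The CFTR-/- animals thus lay above the WT animals of their age at 65, 80 and 100 days and again at term, where WT had 8.64 and 9.79 CPM and CFTR-/- 12.9 and 25.1. At 120 days the groups overlapped, 23.6 and 30.8 in WT against 30.7 and 22.8 in CFTR-/-. Of the 8 genes, 2 lay wholly above WT in CFTR-/- and 0 wholly below at 65 days, where 29.1% and 24.8% of all genes did. At 80 days 1 lay above and 1 below, against 15.1% and 15.8%, and at 100 days 3 above and 0 below, against 15.4% and 19%. At 120 days 2 lay above and 0 below, against 13.2% and 12.6%, and at term 3 above and 2 below, against 21.3% and 32.7%. Over all ages SGCE was 0.71 higher on the log2 scale in CFTR-/- (SE 0.17, unadjusted p = 0.00052, adjusted p = 0.0914), rank 111 of the 19522 genes. Without the 2 libraries that stood apart it was 0.77 (adjusted p = 0.0316), and by DESeq2's Wald test it was 0.72 (adjusted p = 0.00884). The paper's own edgeR comparison at 65 days, at the same thresholds, listed SGCE among the genes higher in CFTR-/-. The fit used here, which shares its estimate of spread over all ages, did not call it there. The reason for this disagreement was not tested.

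SGCE moved with stromal genes. Its correlation with the summed level of 16 fibroblast and matrix genes was r = 0.88 over the 20 libraries, which share scaling and age with it, and the genes most like it by Pearson r of log2 CPM were ABHD4 (0.95), CRISPLD1, FBLIM1, GPR153 and COL14A1, the last a fibril-associated collagen. The stromal genes themselves were fitted higher in CFTR-/- in 15 of 16 over all ages, with a median log2 difference of 0.59 and 0 called, and summed to 10829 and 12600 CPM in WT and 19879 and 20581 in CFTR-/- at 65 days. With the stromal level as a covariate the SGCE difference was 0.47 (SE 0.19, adjusted p = 0.516). The same covariate took PLAGL1 from 0.32 to 0.06, MEST from 0.32 to 0.23, DLK1 from 0.72 to 0.52 and CDKN1C from 0.53 to 0.23. The acinar level ran the other way, with r = -0.78 for SGCE, -0.79 for PLAGL1, -0.85 for MEST and -0.71 for DLK1 over the 20 libraries. With the acinar level as the covariate the difference was 0.64 for SGCE (SE 0.17, adjusted p = 0.140), 0.21 for PLAGL1, 0.26 for MEST, 0.60 for DLK1 and 0.45 for CDKN1C. The part of either cell type in these differences was not tested.

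**Figure D3:**
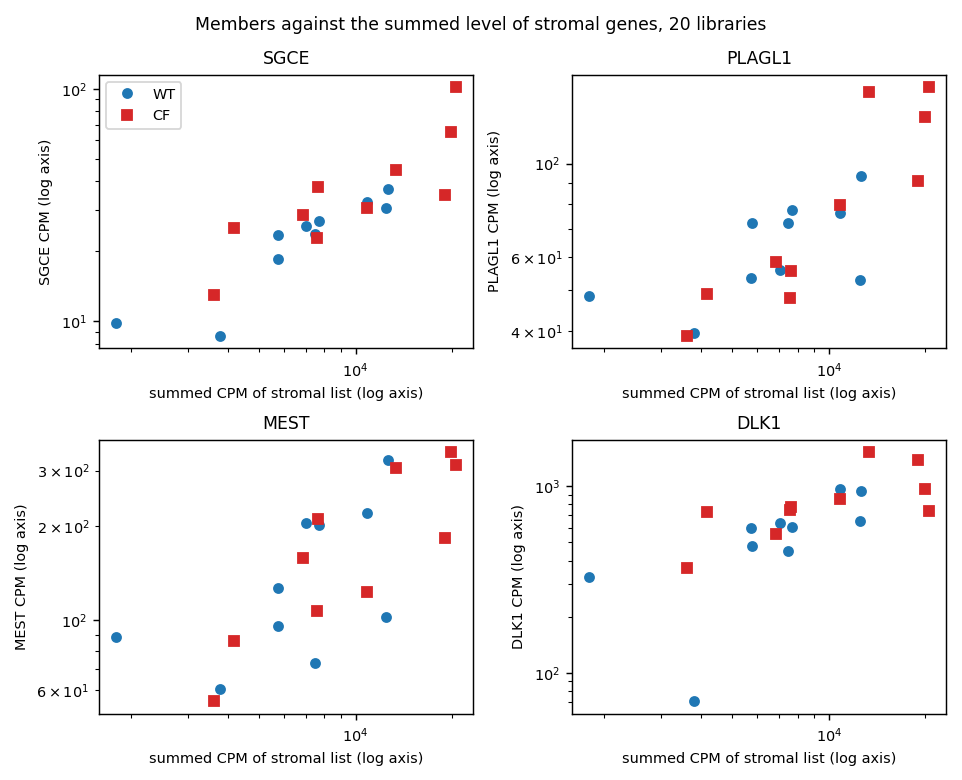
CPM of SGCE, PLAGL1, MEST and DLK1 against the summed CPM of 16 stromal genes in each of the 20 libraries, both on log axes, with WT as circles and CFTR-/- (CF) as squares. All 4 genes rise with the stromal level, with r of 0.88, 0.80, 0.74 and 0.68 on the log2 scale.

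PEG10, the neighbour of SGCE, did not follow it. PEG10 derives from a retrotransposon and is expressed from the paternal copy, at chr4:11926535-11935481 on the plus strand, with its start 207 bases from the start of SGCE and read in the opposite direction. Over the 20 libraries r between the pair was 0.03, and -0.08 within groups. PEG10 followed PEG3 instead, a zinc finger gene expressed from the paternal copy at chr14:60910965-60919946, with r = 0.90 over all libraries and 0.93 within groups. Both also followed IGF2R, with r = 0.81 for PEG10 and 0.79 for PEG3.

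The spread of PEG3 and PEG10 lay between animals of the same group. In WT at 120 days PEG3 was 17.0 CPM in animal 1 and 0.0544 CPM, 3 reads, in animal 2, and PEG10 was 41.7 and 0.508 CPM. Animal 2 there belonged to the pair of libraries that stood apart. In CFTR-/- at 65 days PEG3 was 1.32 and 11.2 CPM and PEG10 4.42 and 39.1 CPM. The difference between the pair of animals was larger than that of the median gene in 8 of 10 groups for PEG3 and in 9 of 10 for PEG10. At these ages the within-group difference exceeded the difference between genotypes.

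At term both genes were lower in CFTR-/- than in either WT animal. PEG3 measured 37.3 and 6.21 CPM in WT and 1.65 and 2.09 in CFTR-/-, a log2 difference of -3.55 (SE 1.72, adjusted p = 0.182). PEG10 measured 22.1 and 11.9 in WT and 3.39 and 1.77 in CFTR-/-, a log2 difference of -2.69 (SE 1.44, adjusted p = 0.226). IGF2R, the receptor that clears the growth factor IGF2, was 49.4 and 11.6 in WT and 3.42 and 0.966 in CFTR-/- (log2 difference -3.75, SE 1.27, adjusted p = 0.0678). None of the 3 passed the test. In the libraries highest in PEG3 and PEG10 long genes were relatively high. The slope of log2 CPM per doubling of gene length was taken as the deviation from the mean library. It was 0.155 in WT animal 1 at term, 0.110 in WT animal 1 of the 120 day stage and 0.0898 in CFTR-/- animal 2 of the 65 day stage. In the other libraries it was at most 0.0467. CFTR-/- animal 1 of the 120 day stage came next, with PEG10 at 20.3 and PEG3 at 8.06 CPM, at a slope of -0.00847. Over all libraries r of the slope was 0.76 with PEG3 and 0.75 with PEG10, and -0.06 with SGCE. The gene length was 5793 bases for PEG3, 2370 for PEG10 and 2267 for SGCE. With that slope as a covariate the difference over all ages went from -0.60 to 0.05 for PEG3 and from -0.30 to 0.17 for PEG10, and whether the length trend sets their level was not tested.

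**Figure D4:**
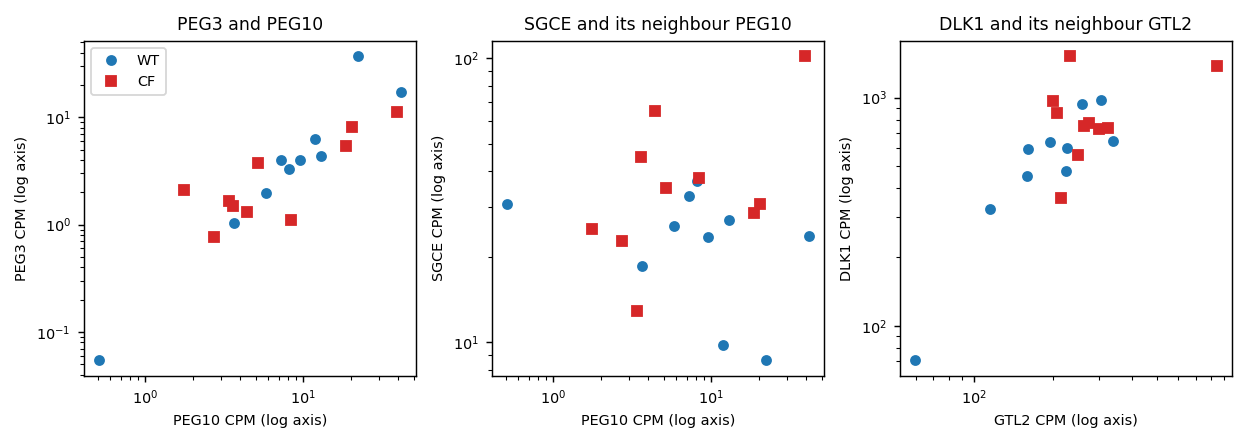
CPM of PEG3 against PEG10, of SGCE against PEG10 and of DLK1 against GTL2 in the 20 libraries, on log axes, with WT as circles and CFTR-/- (CF) as squares. PEG3 and PEG10 rise together (r = 0.90), SGCE shows no relation to its neighbour PEG10 (r = 0.03), and DLK1 rises with GTL2 (r = 0.79).

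The log2 ratio of PEG10 to SGCE ranged from -5.89 to 1.35 in WT and from -3.88 to -0.59 in CFTR-/-. Its mean was -1.47 ± 2.06 (SD, n = 10) in WT and -2.38 ± 1.25 (SD, n = 10) in CFTR-/-. The difference of -0.92 did not pass a two-sided exact permutation test within ages (p = 0.284, adjusted p = 0.567 over 2 ratios).

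DLK1 was the most abundant of the 8 genes. It encodes a membrane protein of the Notch ligand family found on immature cells, is expressed from the paternal copy, and lies at chr18:64230268-64238281. At 65 days it measured 972 and 938 CPM in WT and 962 and 739 in CFTR-/-. At 80 days it measured 636 and 602 in WT and 557 and 1520 in CFTR-/-. At 100 days it was 597 and 478 in WT and 775 and 1376 in CFTR-/-, and at 120 days 452 and 648 against 857 and 750.

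The CFTR-/- animals lay above WT at 100 days, 120 days and term, and overlapped them at 65 and 80 days. At term DLK1 was 70.6 and 325 CPM in WT and 364 and 726 in CFTR-/-, a log2 difference of 1.46 (SE 0.60, adjusted p = 0.123). This value rested on WT animal 1: it was 0.68 without that animal and 2.95 without WT animal 2. Over all ages the difference was 0.72 (SE 0.28, adjusted p = 0.343). The step from 65 days to term was -2.27 (SE 0.61, adjusted p = 0.0478) in WT, short of the threshold, and passed it without WT animal 2 at term (-3.75, adjusted p = 0.00633). In CFTR-/- it was -0.63 (SE 0.53, adjusted p = 0.453).

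GTL2, the maternally expressed long non-coding RNA of the same cluster, begins 97601 bases past the end of DLK1, at chr18:64335882-64362055. It measured 161 and 225 CPM in WT and 273 and 845 in CFTR-/- at 100 days, the highest value belonging to the CFTR-/- animal that stood apart. At term it measured 59.3 and 115 in WT and 214 and 299 in CFTR-/- (log2 difference 1.55, SE 0.49, adjusted p = 0.0559). Over all ages it was 0.61 higher (SE 0.27, adjusted p = 0.426), and 0.39 higher without CFTR-/- animal 2 at 100 days. The log2 ratio of DLK1 to GTL2 averaged 1.38 ± 0.50 (SD, n = 10) in WT and 1.52 ± 0.65 (SD, n = 10) in CFTR-/-, a difference of 0.13 (two-sided exact permutation test within ages, p = 0.593, adjusted p = 0.593 over 2 ratios). DLK1 and GTL2 correlated at r = 0.79, and at 0.52 within groups. BEGAIN, another gene of the cluster, 196492 bases from DLK1 on its other side, was the gene most like DLK1 of all tested, with r = 0.96 and 0.92 within groups.

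MEST, a paternally expressed gene of the hydrolase family at chr4:94252694-94270316, had its lowest value at term in both genotypes. It measured 220 and 325 CPM in WT and 343 and 313 in CFTR-/- at 65 days, and 60.4 and 88.1 in WT and 55.2 and 86.1 in CFTR-/- at term. The step from 65 days to term was -1.87 (SE 0.33, adjusted p = 0.0121) in WT and -2.20 (SE 0.36, adjusted p = 0.0109) in CFTR-/-, each close to the threshold and not past it. SGCE took similar steps, -1.91 (SE 0.24, adjusted p = 0.00553, past the threshold) in WT and -2.12 (SE 0.38, adjusted p = 0.0133) in CFTR-/-. In CFTR-/- 0 of the 8 genes passed this test, against 0.977% of all genes. By DESeq2's Wald test, which called many more of all genes (counts at the end), 4 of the 8 did. An unadjusted p under 0.05 was reached by 5 of the 8 in CFTR-/-, against 29.5%, and by 6 in WT, against 29.4%. At 100 days MEST was 95.8 and 127 CPM in WT and 210 and 182 in CFTR-/-, a log2 difference of 0.82 (SE 0.34, adjusted p = 0.491), and it lay above WT at 120 days too, at 123 and 107 against 73.2 and 102. At term the groups overlapped.

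COPG2, which is read towards MEST from the other side with its end 218 bases away, differed in the other direction. It encodes a subunit of the coatomer of transport vesicles and is imprinted in some mammals. It was one of 36 further imprinted genes, of which 31 were in the table and 28 were tested, and the only one of them called over all ages. At 65 days COPG2 measured 23.8 and 21.4 CPM in WT and 10.1 and 12.3 in CFTR-/-, and at term 11.3 and 13.6 in WT and 9.91 and 7.32 in CFTR-/-. Both CFTR-/- animals lay below both WT animals at each of the 5 ages. Over all ages COPG2 was lower in CFTR-/- by a log2 difference of -0.71 (SE 0.11, adjusted p = 0.00543). The difference lay between -0.76 and -0.69 when each animal was left out in turn, with adjusted p from 0.00523 to 0.0156, so that 13 of the 20 omissions, of both genotypes, ended the call. Under total count scaling it was -0.78 (adjusted p = 0.0467), and with the stromal level as a covariate -0.67 (adjusted p = 0.0448). Without 65, 80, 100 or 120 days the call was also lost, with adjusted p from 0.0315 to 0.0702. MEST over all ages was 0.32 higher in CFTR-/- (SE 0.15, adjusted p = 0.462).

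PLAGL1, a paternally expressed zinc finger transcription factor at chr8:68225267-68280735 whose excess causes transient neonatal diabetes in humans, was highest at 65 days. It measured 76.5 and 93.3 CPM in WT and 129 and 152 in CFTR-/- there, without overlap (log2 difference 0.73, SE 0.39, adjusted p = 0.844). At 80 days it was 55.8 and 77.5 in WT and 58.5 and 148 in CFTR-/-. By term the groups were alike in range, 39.7 and 48.5 in WT and 39.0 and 49.1 in CFTR-/-, at a log2 difference of -0.00257 (SE 0.39). The step from 65 days to term was -1.66 (SE 0.45, adjusted p = 0.0425) in CFTR-/- and -0.95 (SE 0.28, adjusted p = 0.0672) in WT.

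GRB10 had the smallest fitted difference of the 8 genes over all ages. It encodes an adaptor that binds the insulin and IGF1 receptors and dampens their signal, and lies at chr4:5085423-5265803. It ran from 45.8 to 113 CPM in WT and from 51.2 to 179 in CFTR-/-, and the groups overlapped at each of the 5 ages. Over all ages the log2 difference was 0.00537 (SE 0.15, adjusted p = 0.991), and at term it was 0.49 (SE 0.33, adjusted p = 0.333). GRB10 was fitted higher at term than at 65 days, by 0.72 (SE 0.31, adjusted p = 0.168) in WT and 1.24 (SE 0.34, adjusted p = 0.0450) in CFTR-/-, and under total count scaling both steps turned to -0.05 and -0.26. The steps from 65 days to term of SGCE, MEST, CDKN1C, DLK1 and PLAGL1 kept their direction in both genotypes under that scaling.

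Tested for any change over the 5 ages, 0 of the 8 genes were called in WT and 0 in CFTR-/-, against 0.198% and 0.0267% of all genes. An unadjusted p under 0.05 was reached by SGCE, CDKN1C and MEST in WT and by MEST, SGCE, PLAGL1 and GRB10 in CFTR-/-, against 19.9% and 18.6%. From 120 days to term alone 0 of the 8 were called in either genotype, against 0.0107% in WT and 0.00% in CFTR-/-. The smallest p values of that step belonged to SGCE (-1.56, SE 0.24, adjusted p = 0.0255) and CDKN1C (-3.38, SE 0.56, adjusted p = 0.0309) in WT. There 3 of the 8 had an unadjusted p under 0.05 against 23.3%. DESeq2's Wald test called 2 of the 8 in WT, a count not set beside its share of all genes. In CFTR-/- that step was -0.50 for SGCE and 0.52 for CDKN1C, and the value for CDKN1C turned to -0.15 under total count scaling. Here 1 of the 8, GRB10, had an unadjusted p under 0.05 against 9.76% of all genes, and none was called by DESeq2's Wald test.

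Among the 28 other imprinted genes tested, 14 were fitted higher and 14 lower in CFTR-/- over all ages, with a median of -0.04. After COPG2 the smallest p values belonged to PHLDA2 (1.82, adjusted p = 0.309), IGF2 (0.92, adjusted p = 0.343), BEGAIN (0.81, adjusted p = 0.394) and INPP5F (0.29, adjusted p = 0.510), given as log2 differences. IGF2, the paternally expressed fetal growth factor, was 10.4 and 7.08 CPM in WT and 18.0 and 89.2 in CFTR-/- at 100 days, the high value again in the animal that stood apart, and 48.7 and 36.7 in CFTR-/- against 20.1 and 17.6 in WT at 65 days. At term MAGEL2, a paternally expressed gene of the Prader-Willi region, measured 10.9 and 14.8 CPM in WT and 2.16 and 1.61 in CFTR-/-. It was 1 of the 28 called there, lower by a log2 difference of -2.75 (SE 0.36, adjusted p = 0.00406), and the call was lost without CFTR-/- animal 2 (-2.61, adjusted p = 0.0428) and with only the 4 libraries of that age (adjusted p = 0.0707).

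Of 17 tested genes of the insulin-like growth factor axis, 0 were called over all ages and 1 at term, IGFBP5, a binding protein that carries the growth factors. It measured 87.7 and 98.7 CPM in WT and 418 and 441 in CFTR-/- at term (log2 difference 2.20, SE 0.30, adjusted p = 0.00406), and the call was lost under total count scaling (1.66, adjusted p = 0.0120) and without WT animal 2 or CFTR-/- animal 2 (adjusted p = 0.0125 and 0.0404) and with only the 4 libraries of that age (adjusted p = 0.0567). IGFBP5 was also higher at 65 days, 449 and 459 CPM in CFTR-/- against 167 and 193 in WT (log2 difference 1.34), and not called. There 12 of the 17 genes lay wholly above WT and 1 below, against 29.1% and 24.8% of all genes. The paper's own comparison at 65 days listed IGFBP3 and IGFBP5 as higher in CFTR-/-. Over all ages the 5 smallest p values of this list were those of IGFBP7 (0.78), IGFBP5 (0.79), IGF2BP3 (-0.36), IGFBP2 (1.17) and INSR (-0.27), all with adjusted p of 0.105 or more. Of 16 tested genes that set or keep DNA methylation imprints, 0 were called over all ages, where TET2 (-0.36), CTCF (-0.25), SMCHD1 (-0.29), TET3 (-0.25) and ZFP57 (0.43) had the smallest p, with adjusted p of 0.281 or more. DNMT1, the enzyme that copies methylation to the new strand at replication, was called at term. It measured 48.4 and 48.1 CPM in WT and 21.8 and 14.6 in CFTR-/- (log2 difference -1.40, SE 0.24, adjusted p = 0.00733), beside the lower proliferation genes of the same animals, and their part in it was not tested. The call was lost when either WT animal or CFTR-/- animal 2 was left out (adjusted p = 0.0111, 0.0211 and 0.0842), with the gene length covariate (-1.21, adjusted p = 0.0108) and with only the 4 libraries of that age (adjusted p = 0.104).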

How the data were processed

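Pancreas RNA was made into oligo-dT primed, directional libraries and sequenced as paired reads. The authors aligned reads to Oar_v4.0 with STAR (the submitters' processing notes give version 2.6, the methods another) and counted reads per gene with featureCounts 1.6.3. Whether counting used strand is not given in the sources used here. The deposited values are whole-number counts without normalization, in 3 tables (WT, CFTR-/-, all 20 libraries) whose counts are equal.

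Libraries were grouped by genotype and age from their labels, 2 animals per group. These were taken as separate animals. The tests set each difference against the spread between animals within groups, estimated over all libraries of a fit together. A comparison of genotypes at 1 age thus borrows spread from the other ages, with 10 residual degrees of freedom. Counts were filtered (filterByExpr, minimum count 10, minimum total 15) and TMM-scaled, leaving 19522 genes in the table of all libraries, 18714 in the WT table and 18737 in the CFTR-/- table. edgeR 4.0.16 in R 4.3.3 was used with the quasi-likelihood F-test and Benjamini-Hochberg adjustment over all genes. Genotypes were compared in the table of all libraries and ages within each genotype's own table. Genes were called where the adjusted p did not exceed 0.01 and the log2 fold change reached 0.58 in either direction. SEs were derived as the size of the log2 fold change over the square root of F. Correlations used log2 CPM with a prior count of 2. The fits over all ages and at term were also run on simulated counts with known changes between genotypes. These held no changes with age and no outlying libraries, so they do not bear on calls under such conditions.

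The members and lists were chosen with earlier results of these data known. Genes were named by rule: all members, IGF2 and IGF2R, every gene of the 3 further lists called between genotypes, the 5 of each list with the smallest p over all ages, and the 5 genes most like SGCE. GTL2 and the steps of single genes were described after their values were seen. Levels of markers of stromal, acinar, endocrine, duct, stellate, Schwann, adipocyte, erythroid, lymphoid, hepatocyte and enterocyte cells and of proliferation and stress genes were summed per library. Alternatives were DESeq2 1.42.0 (size factors, Wald test), no filter, the likelihood ratio test, other thresholds, a replicate block, covariates and omission of libraries or ages. Total count scaling, the gene length covariate and the DLK1 to GTL2 ratio were added after seeing the data. No gene or protein sequences were used here. Symbols are the table's, with 6 locus numbers of marker genes matched through RefSeq (ARS-UI_Ramb_v3.0), used for names alone.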

Additional observations from a re-analysis of the deposited data

Results flagged for a closer look

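For CDKN1C the CFTR-/- and WT animals did not overlap at 2 ages, in opposite directions, and only the difference at term was called. At 80 days both CFTR-/- animals lay below both WT animals, at a log2 difference of -0.71, as they did for 15.8% of all genes. At term both lay above, at 3.57, as they did for 21.3% of all genes. The share of all genes with both patterns was not counted. The test of the difference between ages gave an adjusted p of 0.173, which does not pass the threshold. No other member showed opposite directions without overlap. Groups of 2 animals were too small to look for a single outlying animal, and all libraries entered the comparisons.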

How the results depend on the processing

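Of 959 alternative values, 568 for single genes and 228 for counts and ratios kept their direction and side of the threshold, many of them genes that were called in neither fit. Among single genes 47 lost a call, 51 gained one and 22 reversed, and of the counts and ratios 42 moved and 1 gained a call. The reversed values all belonged to genes that were not called. The reversals concerned PEG3 over all ages (0.048 with the gene length covariate), PEG10 over all ages (0.22 without term, 0.17 with the gene length covariate, -0.78 to 0.28 when 1 animal was left out), CDKN1C over all ages (-0.045 without term) and GRB10. GRB10 over all ages was -0.041 under total count scaling, -0.00736 without the filter, -0.11 without term, -0.030 with the stromal covariate, -0.018 with the gene length covariate and -0.12 to 0.052 when 1 animal was left out. Its step from 65 days to term was -0.049 in WT and -0.26 in CFTR-/- under total count scaling, and the step of CDKN1C from 120 days to term in CFTR-/- turned from 0.52 to -0.15. The cause was not tested.

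The counts of members below are not set beside the share of all genes called under the same setting. That share also moved with the setting, as the next paragraph shows for some of them. The counts thus show dependence on processing and no result about the 8 genes. Of the 8 genes, the number called between genotypes over all ages, 0 in the report, was 1 by DESeq2's Wald test and 1 at an unadjusted p of 0.01, and it was 1 at 65 days at that unadjusted p. At term it was 0 with the replicate block, 0 with only the 4 libraries of that age, 0 with the gene length covariate, 2 at an unadjusted p of 0.01 and 0 to 1 when 1 animal was left out. The interaction had 1 by the likelihood ratio test. For WT over the 5 ages it was 1 under total count scaling, 1 without the filter, 3 by the likelihood ratio test, 1 in a fit of all 20 libraries, 3 at an adjusted p of 0.05 and 0 to 2 without 1 animal. For WT term against 65 days it was 4 by the likelihood ratio test, 0 with the replicate block, 4 by DESeq2, 4 at an adjusted p of 0.05, 5 at an unadjusted p of 0.01 and 0 to 1 without 1 animal, and against 120 days 2 by the likelihood ratio test, DESeq2 and both other thresholds and 0 to 3 without 1 animal. For CFTR-/- over the 5 ages it was 3 under total count scaling and 2 by the likelihood ratio test. For CFTR-/- term against 65 days it was 5 under total count scaling, 2 without the filter, 3 by the likelihood ratio test, 2 with the replicate block, 2 in the fit of all 20 libraries, 4 by DESeq2, 4 at an adjusted p of 0.05 and 4 at an unadjusted p of 0.01. The log2 ratio of PEG10 to SGCE differed by -1.41 to -0.60 when 1 animal was left out, and -1.41, without WT animal 2 at 120 days, had a two-sided exact permutation p of 0.0450.

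Over all genes, calls between genotypes over all ages went from 17 to 190 by DESeq2 and to between 2 and 42 without 1 animal. At term they went from 201 to 2380 by DESeq2, 77 with the block, 108 with the gene length covariate, 0 with only the 4 libraries of that age and 3 to 794 without 1 animal. For WT term against 65 days they went from 381 to 2739 by DESeq2 and 0 with the block, and for CFTR-/- from 183 to 2780 by DESeq2, 7023 under total count scaling and 357 with the block.

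Same-numbered WT and CFTR-/- animals did not deviate together, with correlations of their deviations from -0.25 to 0.33 over the 5 ages, so that the replicate block rests on shared numbers alone. With the block CDKN1C at term was 3.56 (adjusted p = 0.0102) and DNMT1 -1.41 (adjusted p = 0.0101), both short of the threshold.

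With 2 animals per group, 1 animal decides most values at a single age. Leaving out 1 animal leaves a lone animal that is assumed to vary like the other groups. The planned ratios of IGF2 to H19 and of DLK1 to MEG3 were not run, since H19 and MEG3 were not gene identifiers of the table. CPM at low counts, as for PEG3, carry large counting error.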
